A study of Mus musculus with 3 samples.

Results

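The 41 genes described here are a list of transcripts that accumulate when a cell copies its DNA: Mcm2, Mcm3, Mcm4, Mcm5, Mcm6, Mcm7, Cdc6, Cdc45, Gins2 and Gmnn; Pcna, Prim1, Pola1, Pold3, Rfc2, Fen1, Dscc1 and Pclaf; Tyms, Rrm1 and Rrm2; Chaf1b, Nasp, Slbp, Uhrf1, Hells, Atad2, Cdca7, Casp8ap2 and Ubr7; Clspn, Tipin, Exo1, Blm, Brip1, Usp1, Ung and Wdr76; Ccne2, E2f8 and Dtl. They were taken by symbol, and all 41 were found among the 32285 genes of the matrices. They were measured in dendritic cells grown in vitro from wild-type C57BL/6 mice with FLT3L, the growth factor of dendritic cell development, by droplet sequencing of transcript 3' ends (10x Genomics), in which each captured molecule carries a barcode and is counted once as a UMI. One library each was made from cells differentiated in 2 mM glutamine (control), in 50 µM glutamine, and in 2 mM glutamine with 1 µM DON (6-diazo-5-oxo-L-norleucine, a glutamine analogue that blocks glutamine-using enzymes). With 1 library per group no difference could be tested between conditions: values are set side by side, and their 95% intervals (exact Poisson for UMIs, exact binomial for shares of cells) cover counting error only. The UMI intervals treat UMIs as independent and leave out the spread between cells, so they are too narrow to stand for it. Both treatments are set against the same control library.

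Before replication, MCM helicase rings are loaded onto origins by licensing factors such as Cdc6. In S phase Cdc45 and the GINS complex activate them, primase and the polymerases copy the strands around the sliding clamp Pcna, ribonucleotide reductase and thymidylate synthase supply the nucleotides, and chaperones such as Nasp and the CAF-1 subunit Chaf1b rebuild chromatin behind the fork. Many of these genes are transcribed under E2F factors, which the retinoblastoma proteins hold back outside the cycle. Common dendritic cell progenitors divide rapidly, while plasmacytoid dendritic cells (pDC) and conventional dendritic cells of type 1 (cDC1) and type 2 (cDC2) largely leave the cycle as they mature.

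Each cell was given to a lineage when it held at least 3 UMIs from at least 2 markers of that lineage and of no other, so "pDC", "cDC1", "cDC2" and "progenitors" below mean cells that passed such a gate. In the order control, 50 µM glutamine and DON, 3033, 3474 and 3134 pDC, 1295, 273 and 663 cDC1, 1088, 1032 and 803 cDC2, and 252, 604 and 269 progenitors passed, while 1904, 1438 and 1798 cells met no gate and are called unmarked. A further 1100, 1758 and 1172 cells met several gates and were set aside. The names were checked on genes outside the gates. Batf3, a transcription factor that cDC1 require, stood at 155, 89.8 and 142 CPM (a gene's UMIs scaled to the usual counts-per-million unit, over all UMIs of the gated cells) in cDC1 and at no more than 10.9 CPM in pDC or cDC2. Tcf4, the pDC factor, stood at 1171 CPM or more in pDC and at no more than 153 CPM in the other gates, and Irf4, a cDC2 factor, at 40.8 to 49.6 CPM in cDC2 and at most 8.34 CPM in pDC and cDC1. Bst2 (pDC), Naaa (cDC1), Csf1r (cDC2) and Myb, Cdk6 and Sox4 (progenitors) were also highest in their own gate. Irf8, checked for cDC1, was higher in pDC, at 2397, 2007 and 2221 CPM against 1642, 1281 and 1621 in cDC1. Klf4, checked for cDC2, was higher in unmarked cells (154, 100.1 and 171 CPM) than in cDC2 (130, 93.4 and 145). Irf7, checked for pDC, was higher in cDC2 (65.4 CPM) than in pDC (59.2) at 50 µM glutamine. Some 50 µM gates were less clean than those of the other libraries. In the 50 µM cDC1 gate summed cDC2 markers stood at 112 CPM, against 39.5 in control and 45.3 with DON. In the 50 µM progenitor gate summed pDC markers stood at 564 CPM, against 57.4 in control and 51.6 with DON. Unmarked cells held pDC markers at 415 CPM at 50 µM glutamine, against 139 in control and 175 with DON. Total UMIs per library lay between 87611658 and 92002827, and median UMIs per cell were highest in progenitors, at 15425 to 18108, and 5528 to 10830 in the 3 dendritic cell gates. Nothing in the labels says how many cultures or animals each library came from.

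The start sites of these genes were rich in the letters that E2F factors recognise. RefSeq promoters (GRCm38.p6, 250 bases before to 50 after the start) were found for 31 of the 41 genes, 35 promoters in all. TTCCCGC or TTGGCGC, on either strand, occurred in 19 of the 35 (54.3%) and in 6.81% of 32851 promoters of the same length. CCAAT, the letters bound by NF-Y, occurred in 24 (68.6%) against 37.4% overall. The median GC content was 59% for the list and 52.7% for all promoters, so the backgrounds differ in base composition. The 120 bases before the start are shown for Rrm1 and Dtl, which had the highest ratios in pDC at 50 µM glutamine, for E2f8, itself an E2F family gene, and for Slbp, which holds CCAAT but neither E2F string in these bases. Capitals mark the strings in either orientation, and in E2f8 the CCAAT string lies on the opposite strand and overlaps the E2F string.
Rrm1 (chr7:102441575-102441694, plus strand): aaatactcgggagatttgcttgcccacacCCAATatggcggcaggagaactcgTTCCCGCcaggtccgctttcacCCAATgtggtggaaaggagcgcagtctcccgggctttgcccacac
Dtl (chr1:191575545-191575664, minus strand): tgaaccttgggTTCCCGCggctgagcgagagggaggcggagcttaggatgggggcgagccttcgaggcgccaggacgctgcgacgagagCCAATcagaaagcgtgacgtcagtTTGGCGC
E2f8 (chr7:48881597-48881716, minus strand): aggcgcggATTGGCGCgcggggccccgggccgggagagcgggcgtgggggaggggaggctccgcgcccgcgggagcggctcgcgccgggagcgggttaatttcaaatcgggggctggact
Slbp (chr5:33652575-33652694, minus strand): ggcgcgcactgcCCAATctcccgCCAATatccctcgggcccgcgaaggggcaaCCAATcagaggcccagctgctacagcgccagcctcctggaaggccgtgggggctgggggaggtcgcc
Such matches describe letters and do not show that a factor was bound.

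In control, S phase transcripts were highest in progenitors and lowest in cDC2. They made up 0.487% of progenitor UMIs (95% interval 0.480 to 0.494), 0.254% in unmarked cells, 0.216% in cDC1 (0.214 to 0.219), 0.211% in pDC (0.209 to 0.213) and 0.145% in cDC2 (0.142 to 0.148). Control cDC1 and pDC were close, at a ratio of 1.02 (1.01 to 1.04), whereas cDC1 stood 1.49-fold (1.46 to 1.52) above cDC2. Gene by gene the order was nearly uniform: all 41 members had their highest control CPM in progenitors and 40 had their lowest in cDC2. The exception, E2f8, was lowest in pDC at 25.7 CPM, against 27.0 CPM in cDC2, a gap within the counting intervals. Such orders of lineages, here and in the treated libraries, were counted for the members and not for all genes. Mature dendritic cells gated on Ccr7 and related genes stood below each of these lineages, at 0.0573% in control.

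The treated libraries kept the low position of cDC2 but not the distance between the others. At 50 µM glutamine the share was 0.412% in pDC (0.409 to 0.414), 0.305% in cDC1 (0.298 to 0.312), 0.209% in cDC2 (0.206 to 0.213), 0.479% in progenitors (0.475 to 0.483) and 0.339% in unmarked cells. With DON it was 0.301% in pDC (0.299 to 0.303), 0.308% in cDC1 (0.304 to 0.312), 0.199% in cDC2 (0.196 to 0.202), 0.542% in progenitors (0.535 to 0.548) and 0.296% in unmarked cells. Progenitors thus lay 2.31-fold above pDC in control, 1.80-fold with DON and 1.16-fold at 50 µM glutamine. In 50 µM glutamine, pDC had the highest CPM of any lineage for 7 members, where in control and with DON they had it for none.

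**Figure D1:**
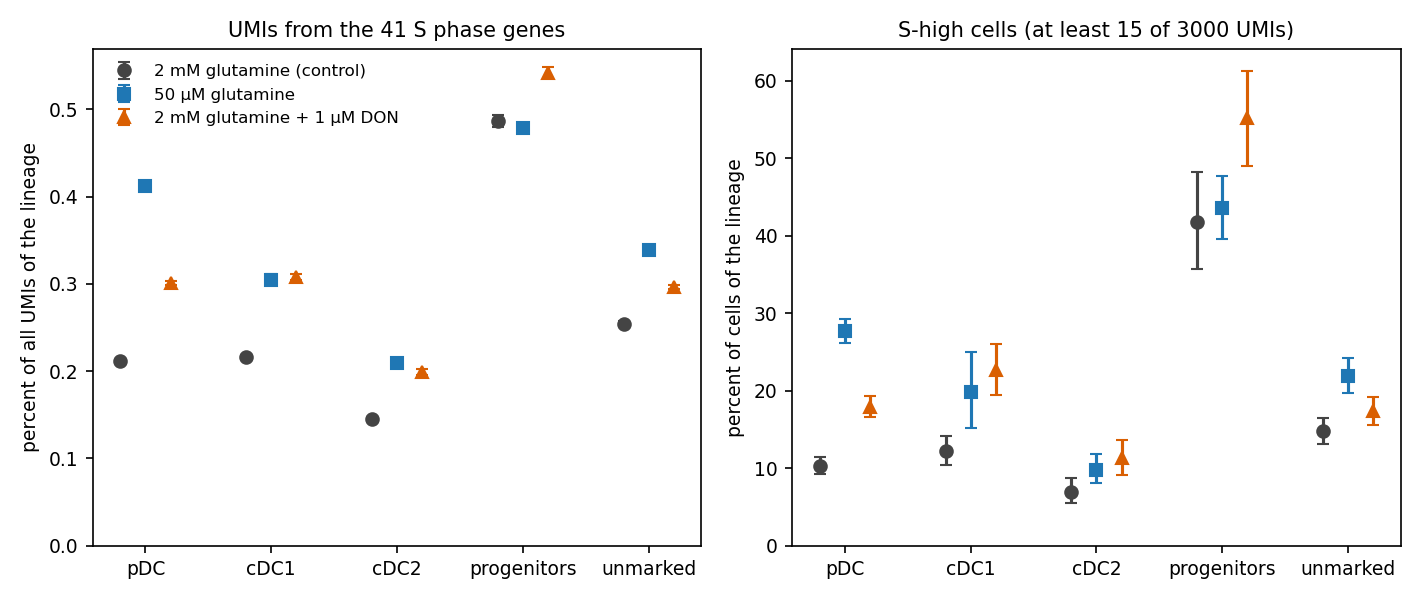
Left, percent of each lineage's UMIs that came from the 41 S phase genes; right, percent of cells with at least 15 S phase UMIs among 3000. Symbols are the 3 libraries and bars are 95% counting intervals. The pDC values run from 0.211% in control to 0.412% at 50 µM glutamine, while control and 50 µM progenitors lie together at 0.487% and 0.479%.

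The same picture appeared as a share of cells. After every cell was thinned at random to 3000 UMIs, cells with at least 15 S phase UMIs were called S-high, a range of a score and not a cell type. S-high cells were 10.3% of pDC in control (95% interval 9.20 to 11.4), 27.7% at 50 µM glutamine (26.2 to 29.2) and 18.0% with DON (16.6 to 19.3). In cDC1 they were 12.2% (10.5 to 14.1), 19.8% (15.2 to 25.0) and 22.6% (19.5 to 26.0) in that order. These intervals do not overlap between control and either treatment in pDC or in cDC1, although in cDC1 at 50 µM glutamine they did overlap under the other gates given with that lineage. In cDC2 the shares were 6.99% (5.54 to 8.68), 9.81% (8.04 to 11.8) and 11.3% (9.18 to 13.7), so DON and control were apart under this gate. Which library stood apart in cDC2, if any, depended on the gate. Neither treatment was clear of control when cells were gated after thinning: 5.65% (4.17 to 7.47), 8.73% (6.91 to 10.9) and 7.48% (5.39 to 10.04). Both were clear when cells of several gates were assigned to the strongest. There the control interval ended at 8.55%, and the treated ones began at 9.40% (50 µM glutamine) and 8.91% (DON). With at least 5 UMIs from 3 markers, S-high cells were 6.31% in control (4.64 to 8.35), 10.9% at 50 µM glutamine (8.80 to 13.3) and 8.45% with DON (6.20 to 11.2), and with the cDC1 marker Wdfy4 left out of the gates they were 7.69% (6.21 to 9.40), 11.6% (9.77 to 13.7) and 11.4% (9.32 to 13.7), so that 50 µM glutamine and not DON was clear of control in both. Progenitors held 41.8% (35.7 to 48.2), 43.6% (39.6 to 47.7) and 55.2% (49.1 to 61.3), with control and 50 µM glutamine within each other's intervals. DON progenitors were clear of control here but not under every gate. With at least 5 UMIs from 3 markers they held 50.2% (43.2 to 57.3) against 43.5% (36.3 to 50.8) in control. When cells were gated after thinning, DON progenitors held 46.4% (39.1 to 54.0) and control progenitors 37.1% (29.8 to 44.8). Unthinned shares under the main gate were close to the thinned ones, for example 9.63%, 26.3% and 17.4% in pDC. Between 99 and 324 pDC per library lay within 13 to 17 UMIs, next to the limit. Mature dendritic cells were again lower, at 0.496%, 2.23% and 1.16%.

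**Figure D2:**
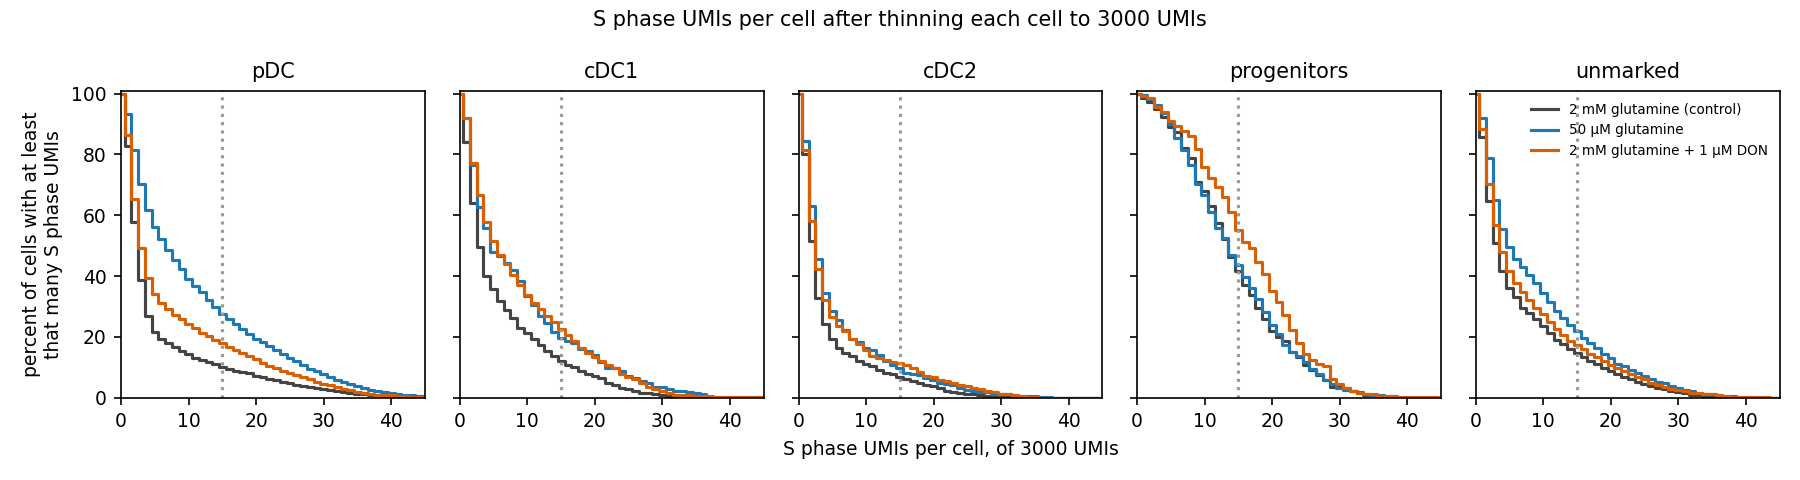
Percent of cells (vertical axis) that hold at least the number of S phase UMIs on the horizontal axis, after thinning to 3000 UMIs, in 5 lineages; lines are the 3 libraries and the dotted line is the limit of 15 UMIs. The 50 µM pDC line lies above the control line throughout the range shown from 1 UMI on, with a median of 6 UMIs against 2, while control and 50 µM progenitors share a median of 13.

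Each gene of the list was also set against the sum of the others. For each member, cells were split at 15 UMIs by the sum of the other 40, and its own CPM was compared between the 2 sides. Every member was higher on the S-high side in all 15 combinations of lineage and library. The list was chosen as genes of the same cycle phase, and other genes were not split in this way. The count therefore describes the list and is no test of it. The widest gaps belonged to Ccne2, the cyclin E that drives entry into S phase, with a median log2 ratio of 3.19, Rrm2, the ribonucleotide reductase subunit made in S phase (3.004), Uhrf1, a maintenance methylation factor (2.63), and Tyms, thymidylate synthase (2.51). In control pDC, Ccne2 stood at 86.4 CPM inside and 2.33 CPM outside. The narrowest gaps belonged to Ubr7 (0.88), Casp8ap2, a histone gene regulator (1.16), the clamp loader subunit Rfc2 (1.21), and Usp1, a deubiquitinase of DNA repair (1.26). The contrast was weakest in progenitors, with medians over the members of 0.80, 0.97 and 0.997 in the order control, 50 µM glutamine and DON, against 2.66, 1.76 and 2.33 in pDC. Cells below the limit in the progenitor gate therefore still carried many S phase transcripts. S-high cells were also deeper, with a median of 9194.5 UMIs against 5381.5 in control pDC before thinning.

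At 50 µM glutamine the S phase genes were higher in pDC across every role. Their summed share was 1.95 times that of control (1.93 to 1.97), and 36 of 41 members were at least 1.5 times higher and 0 lower, where 7.64% of the 9381 genes measured in pDC were at least 1.5 times higher and 3.81% lower. The members' median log2 ratio (5 CPM added to both values) was 0.94, and that of all genes 0.12. All-gene medians at 50 µM glutamine lay between 0.06 and 0.16 in the 5 lineages, and a scaling that brought them to between 0.03 and 0.07 left 33 pDC members above the limit.

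All 10 licensing and helicase genes passed that limit in pDC. Mcm5, a helicase subunit, stood at 54.3 CPM in control (51.1 to 57.7), 123 at 50 µM glutamine (119 to 127) and 82.2 with DON (78.7 to 85.7). Mcm7, another subunit, went 83.0, 164 and 115 CPM in that order, and Mcm6 75.1, 139.6 and 106. For these subunits the 3 libraries are separated by more than the counting error of UMIs, which leaves out the spread between cells. DON lay between control and 50 µM glutamine. Cdc45, the helicase activator, had 14.4, 35.0 and 26.0 CPM, and Gmnn, which blocks relicensing of origins, had 69.7, 125 and 102 CPM. Gins2 had the lowest ratio of this group (log2 0.66).

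Among the genes of the fork, 6 of 8 passed the limit in pDC. Pclaf, a Pcna-binding factor and the member with the most UMIs over the gated cells (80281), stood at 319 CPM in control (311 to 328), 659 at 50 µM glutamine (649 to 668) and 511 with DON (503 to 520). Pcna had 104, 204 and 139.7 CPM, and Prim1, the catalytic primase subunit, 26.4, 54.7 and 38.8 CPM. The others of the group did not all keep pace. Dscc1, a subunit of the cohesion clamp loader (6.39 and 10.7 CPM in control and at 50 µM glutamine, log2 0.47), and Rfc2 (90.6 and 129.8 CPM, 0.50) stayed under 1.5-fold on this scale, which understates the ratio of low genes such as Dscc1.

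The nucleotide supply genes all passed it, led by Rrm1, the large subunit of ribonucleotide reductase, with the highest ratio of all members. Rrm1 had 59.9 CPM in control (56.5 to 63.4), 148 at 50 µM glutamine (143 to 152) and 92.9 with DON (89.2 to 96.7), log2 1.23 and 0.59 over control. Rrm2 had 47.0, 98.9 and 72.3 CPM and Tyms 49.2, 88.2 and 71.5 CPM. Each of these 3 genes kept the same order of libraries in pDC.

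Of the chromatin and histone genes 7 of 9 passed, all but Casp8ap2 (log2 0.53) and Ubr7 (0.50). Uhrf1 had 32.6, 79.9 and 50.6 CPM (log2 1.18 at 50 µM glutamine), Cdca7, a partner of the remodeller Hells, 26.8, 65.4 and 42.5 CPM (1.15), and Nasp, a histone chaperone, 105, 190.3 and 148 CPM (0.83). Slbp, which binds the stem-loop of replication histone mRNAs, had 105, 166 and 136 CPM (0.64). Of the checkpoint and repair genes 7 of 8 passed. The exception was Ung, the uracil glycosylase, at 12.8 and 20.8 CPM (0.53). Usp1 had 77.6, 139 and 100.3 CPM. All 3 cycle control genes passed: Dtl, the substrate receptor that destroys Cdt1 in S phase, at 26.7, 67.1 and 38.7 CPM (1.18), Ccne2 at 15.4, 34.6 and 23.1 CPM (0.96) and E2f8 at 25.7, 58.6 and 37.9 CPM (1.05).

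**Figure D3:**
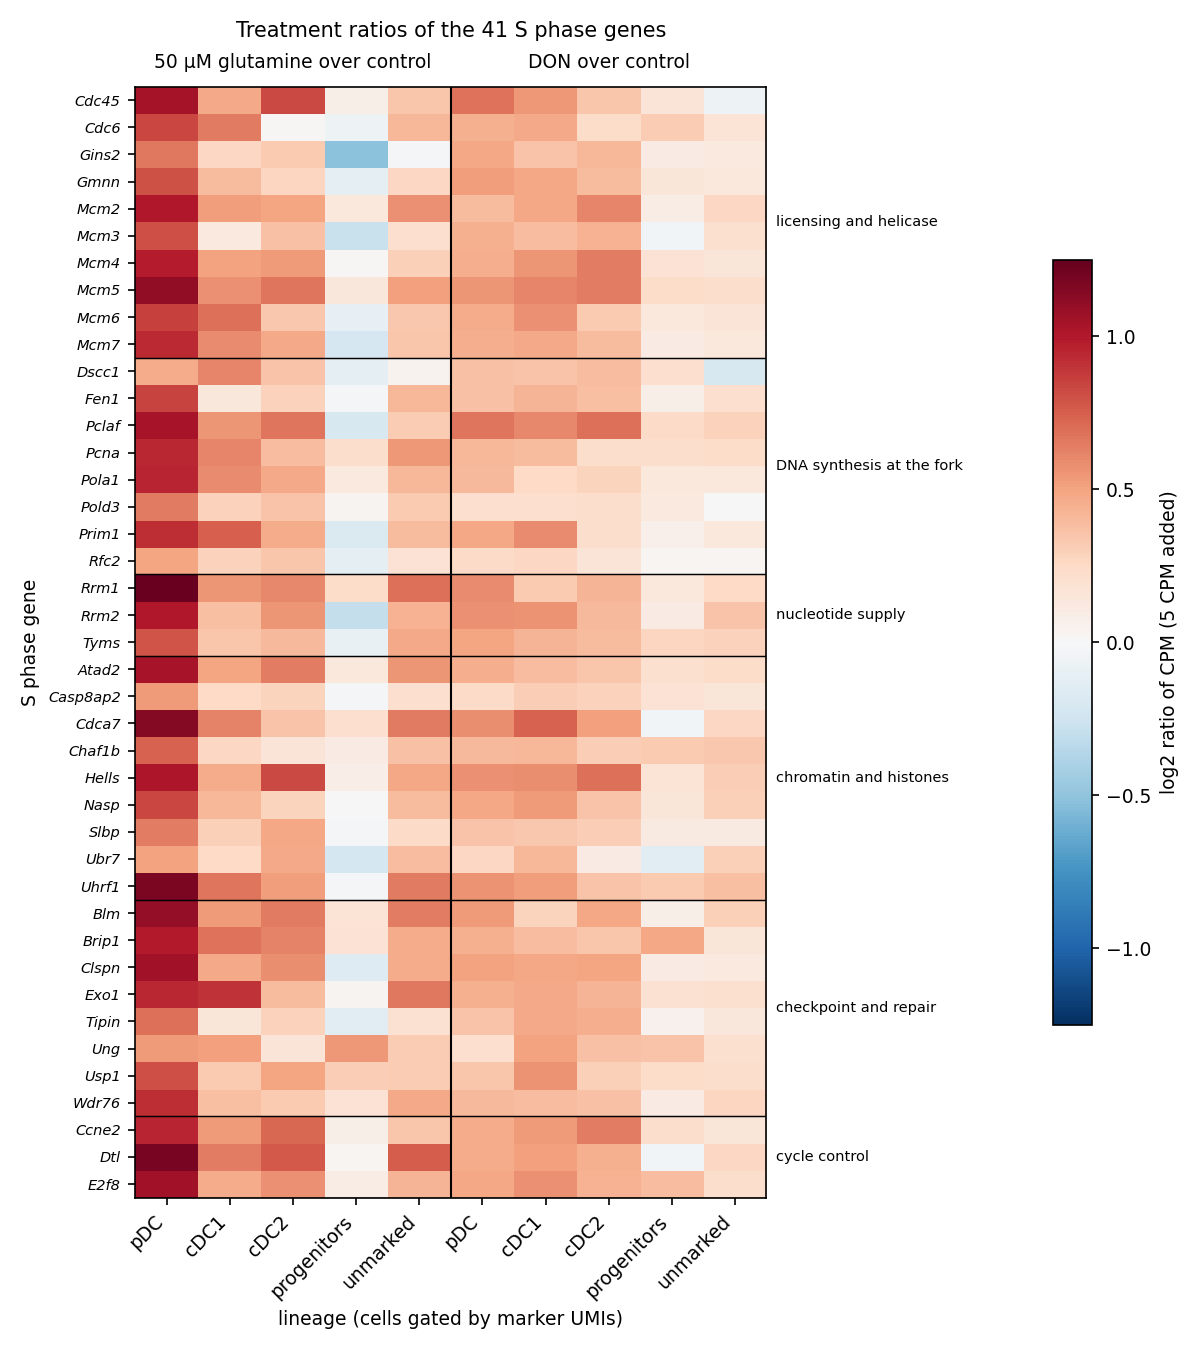
Log2 ratio of CPM over control (5 CPM added) for each of the 41 S phase genes (rows, grouped by role) in 5 lineages, at 50 µM glutamine on the left and with DON on the right. The pDC column at 50 µM glutamine is the darkest, from 0.47 for Dscc1 to 1.23 for Rrm1, and the progenitor column there runs from -0.51 for Gins2 to 0.54 for Ung.

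Genes that mark stages of pDC differed between the 3 libraries within the pDC gate. Ccr9, a receptor of mature pDC, had a UMI in 60.6% of thinned control pDC, 25.7% at 50 µM glutamine and 48.6% with DON, whereas in cDC2, a background for Ccr9, it was found in 1.49%, 1.90% and 1.76% (all cells at 3000 UMIs; median depths before thinning 5540.5 to 7260 in pDC and 6622 to 8229 in cDC2). Progenitor genes outside the gates moved the opposite way in pDC: Myb stood at 63.8, 120.5 and 81.8 CPM, Cdk6 at 46.9, 139 and 56.0, and Sox4 at 92.7, 180.4 and 113. Both sides of the Ccr9 split held more S-high cells in the treated libraries. Among cells with a Ccr9 UMI, 3.24% were S-high in control (2.48 to 4.16), 11.96% at 50 µM glutamine (9.89 to 14.3) and 6.21% with DON (5.05 to 7.55). Among cells without one, the shares were 21.0% (18.8 to 23.5), 33.1% (31.3 to 35.0) and 29.0% (26.8 to 31.3). A shift in stages and a change of these genes within cells cannot be told apart with 1 library per group. A cell without a Ccr9 UMI among 3000 may still express Ccr9, so the split does not separate stages. The part of a shift in stages in the pDC values was not tested.

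**Figure D4:**
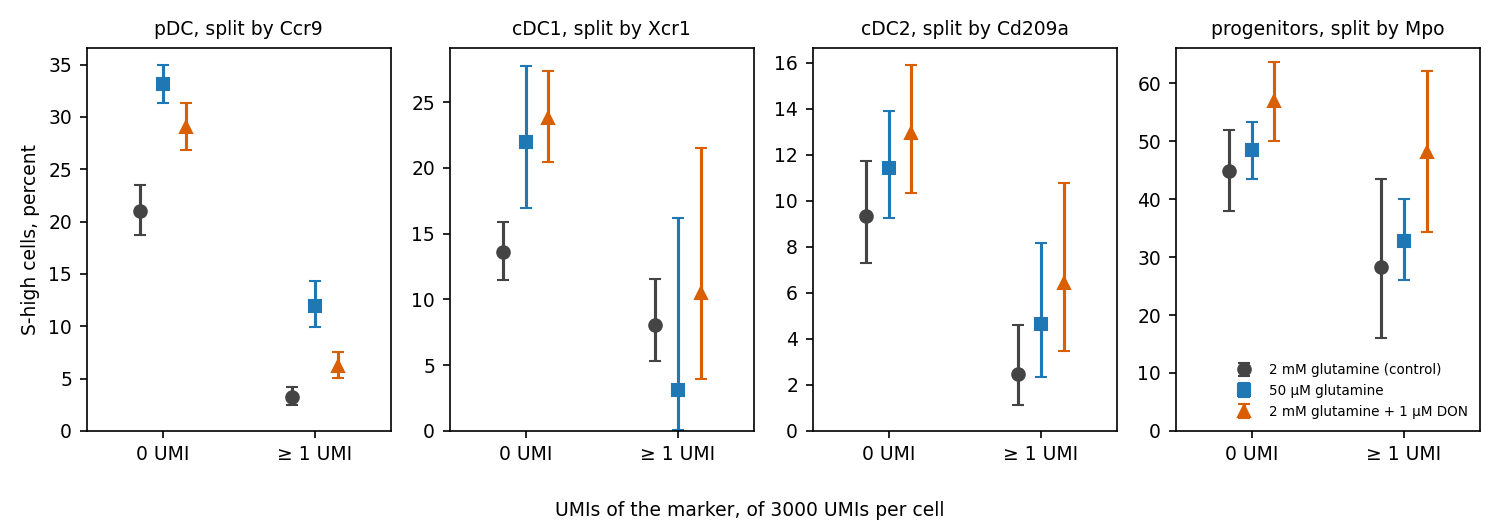
Percent of S-high cells (95% binomial intervals) among cells with and without a UMI of a marker of their own lineage, Ccr9 in pDC, Xcr1 in cDC1, Cd209a in cDC2 and Mpo in progenitors, in the 3 libraries. In every pair the marker-positive cells hold fewer S-high cells, for example 3.24% against 21.0% in control pDC.

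In the other lineages too, cells with a marker UMI held fewer S-high cells than those without, but less clearly. The intervals of the 2 sides overlapped in cDC1 in control and with DON, and in cDC2 with DON. In control, cDC1 with a UMI of the chemokine receptor gene Xcr1 were S-high in 8.02% (5.31 to 11.5) and those without in 13.6% (11.5 to 15.9), and cDC2 with a UMI of the lectin gene Cd209a in 2.46% (1.13 to 4.62) against 9.34% (7.29 to 11.7). Xcr1 was found in 25.0% of control cDC1, 11.7% at 50 µM glutamine and 8.60% with DON, and in 0.133%, 0.0585% and 0.0642% of pDC. Only 32 cDC1 had an Xcr1 UMI at 50 µM glutamine, of which 1 was S-high, and with DON 10.5% of those with one were S-high (3.96 to 21.5), which overlaps control. Among cDC1 without an Xcr1 UMI the treated shares were 22.0% (16.9 to 27.8) and 23.8% (20.4 to 27.4), both clear of control. Cd209a was found in 34.1% of control cDC2, 23.7% at 50 µM glutamine and 25.3% with DON, and in 1.23%, 1.08% and 0.674% of pDC. In cDC2 with a Cd209a UMI the treated S-high shares were 4.64% (2.34 to 8.15) and 6.44% (3.47 to 10.8), and in those without 11.4% (9.25 to 13.9) and 12.9% (10.3 to 15.9), all overlapping control. The part of these marker shifts in the cDC1 and cDC2 values was not tested. Progenitors with a UMI of Mpo, the granule enzyme of myeloid progenitors, were S-high in 28.3% in control (15.99 to 43.5) and those without in 44.9% (37.9 to 52.0), intervals that overlap. At 50 µM glutamine these shares were 32.8% (26.1 to 40.05) and 48.4% (43.6 to 53.4), and their intervals do not overlap. With DON they were 48.1% (34.3 to 62.2) and 57.01% (50.1 to 63.7), which overlap. Mpo was found in 18.3%, 30.8% and 20.1% of progenitors and in at most 0.585% of pDC. The part of this shift in Mpo in the progenitor values was not tested.

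In cDC1 at 50 µM glutamine the S phase genes were higher under the gate as set, but this rested on how cDC1 were gated. The share was 1.41 times control (1.38 to 1.45), 12 of 41 members were at least 1.5 times higher and 0 lower, beside 9.46% of 9314 genes higher and 1.4% lower, and the median log2 ratio was 0.49 against 0.14 for all genes. The highest ratios were those of Exo1, a repair exonuclease (8.29 CPM in control and 19.8 at 50 µM glutamine, log2 0.90), Prim1 (26.0 and 46.9 CPM, 0.75) and Mcm6 (69.8 and 115.5 CPM, 0.69). The lowest were Mcm3 (90.9 and 99.4 CPM, 0.12), Fen1, the flap nuclease (0.14), and Tipin (0.15). With at least 5 UMIs from 3 markers, 173 cDC1 remained at 50 µM glutamine and 1121 in control, S-high cells were 11.6% (7.21 to 17.3) and 11.95% (10.1 to 14.0), and 1 member was at least 1.5 times higher. With Wdfy4 taken off the marker list, an alternative added after the data had been seen, 139 and 1037 cells remained, the shares were 10.8% (6.17 to 17.2) and 11.3% (9.42 to 13.4), and 0 members passed. Wdfy4 made up 41.6% of the cDC1 marker UMIs in the 50 µM gate and 33.3% in control. Cd209a, a cDC2 gene, had a UMI in 12.5% of the 50 µM cDC1 and 2.08% of control cDC1.

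In cDC1 with DON the difference held under those gates. The share was 1.42 times control (1.40 to 1.45), and the S-high share, 22.6% under the main gate, was 24.1% (20.2 to 28.4) under the stricter one and 23.2% (19.2 to 27.7) without Wdfy4, with the control shares given above. All 41 members had log2 ratios above 0, with a median of 0.48 against 0.09 for all genes, and 4 were at least 1.5 times higher and 0 lower, beside 0.982% of 8862 genes higher and 1.48% lower: Cdca7 (31.7 and 56.3 CPM, 0.74), Mcm5 (50.8 and 79.9 CPM, 0.61), Pclaf (313 and 476 CPM, 0.60) and Prim1 (26.0 and 41.5 CPM, 0.59). The lowest was Pold3, a polymerase delta subunit, at 0.21. That count was sensitive to the 5 CPM added, at 14 members with 1 CPM and 0 with 20 CPM.

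In cDC2 the S phase genes were higher in both treated libraries. The share was 1.44 times control (1.41 to 1.48) at 50 µM glutamine and 1.37 times (1.34 to 1.41) with DON. At 50 µM glutamine 10 members were at least 1.5 times higher and 0 lower, beside 5.19% of 9290 genes higher and 1.49% lower, and with DON 6 and 0, beside 0.796% of 9050 genes higher and 0.376% lower. The remodeller gene Hells had 22.9 CPM in control (19.8 to 26.4), 44.5 at 50 µM glutamine (39.8 to 49.5) and 39.8 with DON (35.4 to 44.7). Both treated libraries lay above control by more than the counting error of UMIs. Cdc45 had 7.39, 17.0 and 10.8 CPM and Ccne2 8.82, 17.7 and 16.6 CPM. Dtl was at 15.6, 30.1 and 23.0 CPM. At the other end Cdc6, the loader of the helicase, was level at 50 µM glutamine, with 9.90 CPM in control and 10.0 CPM (log2 0.01), and with DON the lowest ratio was that of Ubr7 (0.10). The distance between the treatments rested on the gate: the log2 ratio of the share, 0.53 at 50 µM glutamine and 0.46 with DON, was 0.71 and 0.31 under the stricter gate, and 0.61 and 0.29 when cells were gated after thinning. Under the stricter gate 21 members were at least 1.5 times higher at 50 µM glutamine and 1 with DON.

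Progenitors stood apart at 50 µM glutamine, where the S phase share was 0.984 times control (0.968 to 1.00). No member was 1.5 times higher or lower, where 2.65% of 9148 genes were higher and 1.76% lower, and the median log2 ratio was 0.01, with 22 members above 0 and 19 below. For 40 of the 41 members the progenitor ratio was the lowest of the 5 lineages, and for 39 the pDC ratio was the highest. The same order was not counted over all genes. Gins2, a subunit of the GINS complex, was at 55.1 CPM in control (48.1 to 63.0) and 37.1 at 50 µM glutamine (33.4 to 41.2), and Rrm2 at 116 (106 to 127) and 93.5 (87.4 to 99.9). Ung was the other way, at 20.1 (15.97 to 25.1) and 31.5 CPM (28.0 to 35.3), log2 0.54, as was Usp1 at 136 and 169 CPM (0.31). The sign of the summed ratio, -0.02 in log2, turned under several gates and without Pclaf, between -0.02 and 0.03 in all, so it had no stable direction. Progenitors had the greatest depth and already carried the most S phase UMIs in control. At 50 µM glutamine their gate also held more pDC marker UMIs than in control, and a larger share of cells with an Mpo UMI. The part of either in the values was not tested.

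With DON the progenitor share was 1.11 times control (1.09 to 1.13), with 0 members at least 1.5 times higher or lower beside 0.343% of 9034 genes higher and 0.387% lower, and a median of 0.15. Brip1, a repair helicase, had the highest ratio (25.2 and 37.1 CPM, log2 0.48), followed by E2f8 (39.3 and 53.0 CPM, 0.39) and Ung (0.35), and Ubr7 had the lowest (-0.14). In pDC with DON the share was 1.43 times control (1.41 to 1.44), and 3 members were at least 1.5 times higher and 0 lower, beside 0.667% of 9149 genes in either direction: Cdc45 (log2 0.68), Pclaf (0.67) and Rrm1 (0.59). That count was 16 under the stricter gate, 10 with 1 CPM added and 1 with 20 CPM. The median was 0.45 against 0.03 for all genes. All 41 members had a higher pDC ratio at 50 µM glutamine than with DON. In cDC1 this was so for 19 and in cDC2 for 24. It was not counted over all genes.

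Unmarked cells had smaller ratios, 1.33 at 50 µM glutamine (1.31 to 1.35) and 1.17 with DON (1.15 to 1.18). At 50 µM glutamine 6 members were at least 1.5 times higher and 0 lower, beside 4.69% of 9460 genes higher and 2.17% lower, namely Dtl (31.4 and 56.6 CPM, log2 0.76), Rrm1 (0.69), Exo1 (0.66), Uhrf1 (0.65), Cdca7 (0.64) and Blm (0.64), and with DON 0 in either direction beside 0.34% of 9111 genes higher and 0.307% lower. With DON the lowest was Dscc1 (-0.20, from 9.47 to 7.62 CPM). Cells that met several gates, which were set aside, followed pDC in order, with S phase UMIs at 0.246% (control), 0.404% (50 µM glutamine) and 0.303% (DON).

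Within a library the lineages could be compared without crossing treatments. Over cDC2, cDC1 had 14, 16 and 15 members at least 1.5 times higher (control, 50 µM glutamine and DON), and 0 lower in each, beside 5.6%, 6.14% and 4.8% of all genes higher and 8.13%, 7.11% and 7.55% lower. Progenitors over cDC1 had 39, 19 and 30 higher, beside 19.5%, 16.1% and 13.7% of all genes, and 0 lower, beside 14%, 17.5% and 12.5%. Over pDC, cDC1 had 0 higher in each library, beside 8.08%, 9.8% and 7.23% of all genes higher, and 0, 4 and 0 lower beside 17.5%, 13.6% and 13.5% of all genes lower. The median log2 ratio of cDC1 over pDC was 0.04, -0.40 and 0.05 in the same order of libraries, and at 50 µM glutamine 40 of 41 members were below 0. Unmarked cells over cDC1 had 1, 1 and 0 members higher, beside 8.48%, 7.74% and 6.57% of all genes, and 0, 0 and 1 lower, beside 4.59%, 6.51% and 3.24%.

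S-high cells were 2.70 times as frequent in pDC at 50 µM glutamine as in control and 1.75 times with DON. The pDC under the limit also held more S phase UMIs in the treated libraries, at 0.0999% of their UMIs in control, 0.204% at 50 µM and 0.134% with DON. Among S-high pDC the S phase share was 0.998 times control at 50 µM glutamine and 0.982 times with DON. Both sides were chosen by the sum of the same genes, so these levels describe the split and do not locate the difference.

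The genes of the next cycle phases followed in pDC and cDC2 but not in cDC1 at 50 µM glutamine. A fixed list of 49 G2 and mitosis genes, such as Top2a and Cdk1, made up 0.479% of control pDC UMIs, 0.930% at 50 µM glutamine and 0.736% with DON, and 46 and 24 of its members were at least 1.5 times higher in the treated libraries, beside 7.64% and 0.667% of all genes. In cDC1 the shares were 0.548%, 0.549% and 0.719%. The 50 µM cDC1 thus had S phase UMIs at 0.555 times the G2 and mitosis UMIs, against 0.395 in control and 0.428 with DON, and 0 of the 49 genes were 1.5 times higher, beside 9.46% of all genes, with a median of 0.06. The dependence on the gate given above applies to these cells. In cDC2 19 of 49 were higher at 50 µM glutamine and 10 with DON, beside 5.19% and 0.796% of all genes. In progenitors the counts were 1 and 0, near the 2.65% and 0.343% of all genes.

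**Figure D5:**
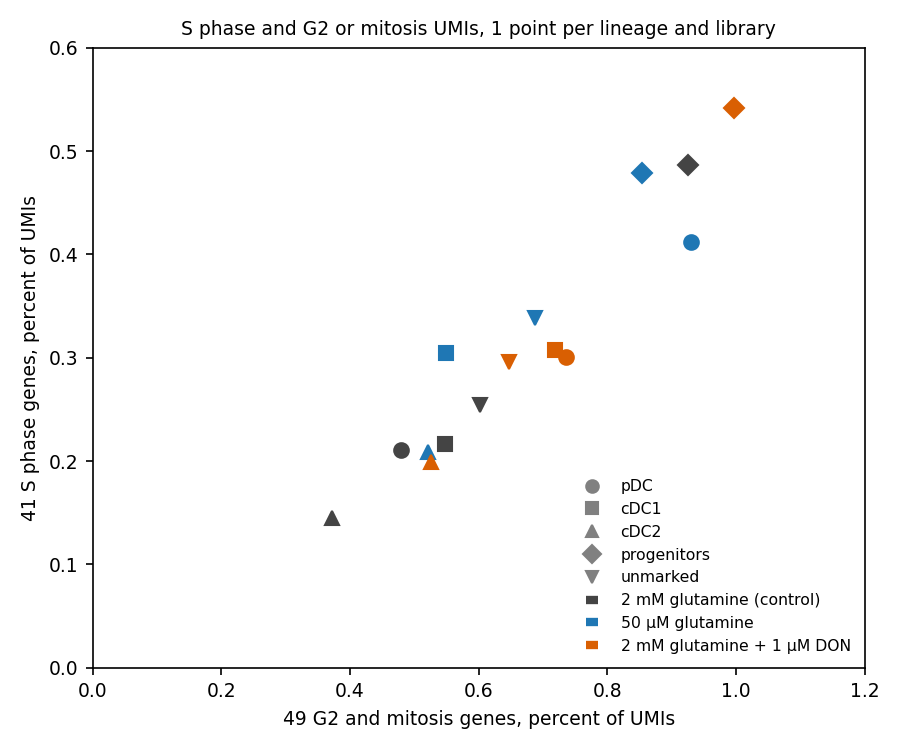
Percent of UMIs from the 41 S phase genes (vertical axis) against percent from 49 G2 and mitosis genes (horizontal axis), with 1 point per lineage (shape) and library (colour). The 50 µM cDC1 point lies above the control cDC1 point at nearly the same horizontal position, 0.549% and 0.548%, while pDC move along both axes.

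A list of 42 other replication genes, which holds more of the origin, polymerase and E2F genes, gave a similar picture to the 41. In pDC 31 of the 41 that were measured were at least 1.5 times higher at 50 µM glutamine and 0 lower, with a median of 0.77, beside 7.64% of all genes higher and 3.81% lower. With DON 1 was higher, beside 0.667%, with a median of 0.37. The highest were Ticrr, an origin-firing factor (7.37 and 21.6 CPM, log2 1.104), and E2f7, an E2F repressor (8.04 and 22.5 CPM, 1.08), and Pold2 was level at 31.6 and 31.1 CPM. In progenitors 0 of 42 were higher at 50 µM glutamine (median -0.04), beside 2.65% of all genes. Of 9 measured cell cycle inhibitors in pDC, 1 was higher and 1 lower at 50 µM glutamine, beside 7.64% and 3.81% of all genes. These are too few to compare with those shares. They were Cdkn1a (22.4 and 48.7 CPM, 0.97) and Btg2, an antiproliferative factor. Btg2 had a control level of 269.6 CPM against 116 at 50 µM glutamine (log2 -1.18) and 165 in the DON library (-0.69). At 50 µM glutamine Cdkn1a was also higher in progenitors (35.0 and 125 CPM, 1.70), cDC1 (1.15), unmarked cells (0.91) and cDC2 (0.31). Btg2 was lower there too, at -0.19 in progenitors, -0.22 in cDC1, -0.45 in unmarked cells and -0.39 in cDC2. With DON, Cdkn1a was at 0.12 in pDC, -0.21 in progenitors, -0.47 in cDC1, -0.54 in unmarked cells and -0.09 in cDC2. Outside pDC, Btg2 with DON was at 0.27 in progenitors, -0.30 in cDC1, -0.30 in unmarked cells and -0.28 in cDC2.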

How the data were processed

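The authors deposited 1 matrix of raw UMI counts per library, with barcodes already called as cells. Per the file headers Cell Ranger 6.0.0 wrote it, whereas version 3.1.0 and the mm10 build come from the submitters' processing notes, and the annotation is not given in the sources used here. Barcodes were dropped under 1000 UMIs, under 500 genes, or above 10% mitochondrial UMIs. Doublets marked by Scrublet in scanpy 1.11.5 (expected rate 0.08) were removed, 8.62%, 4.97% and 5.85% of cells in control, 50 µM glutamine and DON, which left 9473, 9169 and 8367 cells. Simulated doublets scored above the thresholds in 63.4%, 51.3% and 55.0% of cases, so some doublets remain. Libraries shared 20 to 31 barcodes in pairs. UMIs were summed per library and lineage gate, and ratios used log2 of CPM with 5 CPM added, for genes of at least 5 CPM in either library. S-high calls used cells thinned to 3000 UMIs, and shallower cells, 0 to 134 per lineage and library, were left out. No test was made. The fold rule was tested on simulated data. Named genes are a fixed set, the member with the most UMIs per role, and the 3 highest and 3 lowest ratios per treatment and lineage. Blm, Ticrr, E2f7, Pold2, Cdkn1a and Btg2 were named after their values were seen. The members and lists were chosen with earlier results of these data known. Alternatives covered gates, doublets, depth, floors, pseudocounts, scaling, cell weighting and the S-high limit.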

Additional observations from a re-analysis of the deposited data

How the results depend on the processing

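No paired analysis was possible because each group has 1 library. For the same reason no replicate could be left out. The higher S phase share in pDC kept its direction under the alternatives run, with log2 ratios between 0.93 and 1.13 at 50 µM glutamine and between 0.48 and 0.61 with DON. In the sentences that follow, values are log2 ratios of the S phase share, at 50 µM glutamine unless DON is named.
With at least 5 UMIs from 3 markers they were 1.13 in pDC, 0.21 in cDC1, 0.71 in cDC2, 0.00998 in progenitors and 0.51 in unmarked cells, and with DON 0.61 in pDC, 0.31 in cDC2, 0.12 in progenitors and 0.27 in unmarked cells. With gates on thinned counts they were 1.104 in pDC, 0.43 in cDC1, 0.61 in cDC2, 0.0115 in progenitors and 0.53 in unmarked cells, and with DON 0.43 in cDC1, 0.29 in cDC2, 0.12 in progenitors and 0.29 in unmarked cells. With every cell weighted equally they were 1.13 in pDC, 0.55 in cDC1 and 0.45 in cDC2, and with DON 0.55 in pDC, 0.55 in cDC1, 0.41 in cDC2 and 0.19 in progenitors. With cells of several gates assigned to the strongest they were 0.60 in cDC2 and 0.0296 in progenitors, and with DON 0.46 in cDC1, 0.42 in cDC2 and 0.12 in progenitors. With doublets kept the pDC values were 0.93, and 0.49 with DON. Without Pclaf, progenitors were at 0.00187 and pDC at 0.48 with DON. Of the alternatives added after the data had been seen, the cDC1 gate without Wdfy4 gave 0.94 in pDC, 0.12 in cDC1, 0.61 in cDC2 and 0.44 in unmarked cells, and with DON 0.55 in cDC1 and 0.40 in cDC2. The pDC gate without Ly6d gave 1.08 in pDC and 0.57 in cDC2, and 0.56 in pDC with DON.

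Counts of members at least 1.5 times higher varied more, except in pDC at 50 µM glutamine, where they were between 30 and 39 in the alternatives run. At 50 µM glutamine cDC1 had 12 in the main analysis, 1 with the stricter gate, 0 without Wdfy4, 7 with the thinned gate, 6 with median-of-ratios scaling and 1 with 20 CPM added. For cDC2, with 10, these were 21, 16 without Wdfy4, 5 with equal weights, 4 with the other scaling, 16 with 1 CPM added and 2 with 20 CPM. For unmarked cells, with 6, they were 11 with the stricter gate, 13 with the thinned gate, 3 with the other scaling and 1 with 20 CPM. For progenitors, with 0, equal weights and 1 CPM gave 1 each, and the stricter gate gave 1 member lower. With DON pDC had 3, and 16 with the stricter gate, 7 with the thinned gate, 9 with equal weights, 5 without Wdfy4, 9 without Ly6d, 10 with 1 CPM and 1 with 20 CPM. With DON cDC1 had 4, and 8 without Wdfy4, 1 with cells of several gates assigned, 9 with equal weights, 1 with the thinned gate, 1 with the other scaling, 14 with 1 CPM and 0 with 20 CPM. With DON cDC2 had 6, and 1 with the stricter gate, 1 with the thinned gate, 2 without Wdfy4, 2 with several gates assigned, 2 with equal weights, 3 with the other scaling and 1 with 20 CPM. Progenitors with DON had 1 with the thinned gate. Ratios near 1.5-fold make such counts unstable, and the cause of the other shifts was not tested. Of the named member ratios 2 reversed, both in cDC1 at 50 µM glutamine: Mcm7 was at -0.049 with the stricter gate and Pola1 at -0.036 without Wdfy4. The smallest gates held 252 progenitors in control, 269 progenitors with DON and 273 cDC1 at 50 µM glutamine.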
